A study of Mus musculus with 4 samples.

Results

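The 10 genes Gpi1, Aldoa, Aldoc, Tpi1, Gapdh, Pgk1, Pgam1, Eno1, Eno3 and Pkm encode the enzymes that carry glycolysis from glucose 6-phosphate isomerase to pyruvate kinase, leaving out hexokinase, phosphofructokinase and lactate dehydrogenase. They were chosen by symbol, all 10 were found among the 38293 genes of the deposited table, and all 10 passed the filter on low counts. Their transcripts were measured by RNA sequencing in ventricles of individual mouse embryos (Mus musculus, C57BL/6 background) at stage E12.5, with atria and valve region removed. The cKO group (Hif1alphaflox/flox/Nkx2.5Cre/+) had 2 embryos, and the control group (Hif1alphaflox/flox/Nkx2.5+/+) had 2 littermates, all from litter 6 and matched by somite number. All 4 embryos were homozygous for floxed Hif1a, and the cKO embryos had in addition Cre recombinase in 1 copy of Nkx2-5, a gene switched on in heart muscle precursors. No group carried Cre without the floxed allele, so effects of the Cre or of its locus cannot be told apart from those of Hif1a loss. Cells of the ventricle in which this Cre is not active keep Hif1a. The labels give the replicate numbers 2 and 3 in each group.

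In this stretch of glycolysis, Gpi1 turns glucose 6-phosphate into fructose 6-phosphate, aldolase splits the phosphorylated hexose, Tpi1 interconverts the resulting trioses, and the enzymes from Gapdh to Pkm make pyruvate and ATP. HIF-1, the oxygen-regulated transcription factor whose alpha subunit Hif1a encodes, is known to induce many glycolytic genes through short DNA elements with the core ACGTG or GCGTG. Several steps have a ubiquitous and a muscle gene, such as Eno1 and Eno3 for enolase or Pgam1 and Pgam2 for phosphoglycerate mutase, and the developing heart uses glycolysis heavily.

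Total expected counts ranged from 8561687 to 19801300, with the largest in cKO replicate 3. Hif1a itself stood at 716 and 663 CPM in cKO, against 530 and 552 CPM in control (log2 fold change 0.35 ± 0.09 SE, edgeR adjusted p = 0.317). Both cKO libraries lay above both controls, and the cKO mean was 127% of the control mean, with no call. Counts were made per gene and not per exon, so they do not check the deletion. Nkx2-5, the gene that carries the Cre in cKO, had 44.3 and 42.1 CPM in cKO, against 55.9 and 64.9 CPM in control, and the groups did not overlap. Its cKO mean was 71.5% of the control mean, with no call (log2 fold change -0.49 ± 0.10 SE, edgeR adjusted p = 0.153). By Xist (2.12 CPM) and Ddx3y (101 CPM), cKO replicate 3 was male, against Xist levels from 1754 to 2097 CPM elsewhere, so sex was not balanced between the groups. The labels give no sequencing batch. Summed markers of heart muscle (12 genes) were 44896 and 41707 CPM of the total in cKO, against 45048 and 43499 CPM in control. Erythroid markers (8 genes) summed to 2279 and 5521 CPM in cKO, against 4358 and 5048 CPM in control, so cKO replicate 2 was low in them.

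Transcripts of 7 of the 10 enzymes fell in the cKO ventricles: Aldoa, Tpi1, Gapdh, Pgk1, Pgam1, Eno1 and Pkm. Their mean levels in cKO were between 44.6% (Pgk1) and 66.1% (Gapdh) of the control mean. Gpi1, Aldoc and the muscle enolase Eno3 did not pass the test. Levels are in CPM, counts scaled for library size and, by TMM, for composition, and the test is edgeR's quasi-likelihood test over all 13711 genes that passed the filter, with a Benjamini-Hochberg adjusted p under 0.05 taken as called. Over all genes tested, 0.365% were called lower in cKO and 0.146% were called higher. None of the 10 enzymes was called higher by edgeR, DESeq2 (0.206% of genes higher) or limma-voom (0.146% higher, 0.387% lower), and 0 were higher at an unadjusted p under 0.05, beside 3.39% of all genes tested. At that unadjusted threshold 9 of the 10 were lower, beside 3.58% of all genes tested. The median log2 fold change, cKO over control, was -0.78 over the 10 enzymes and -0.0003 over all genes tested, and the cKO libraries taken singly against the control mean gave -0.87 for replicate 2 and -0.73 for replicate 3. In 9 of the 10 both cKO libraries lay below both controls, as they did in 18.8% of all genes tested. In bulk tissue, fewer cells of a type and less RNA per cell cannot be told apart.

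The reads of the 10 genes summed to 4286 and 4501 CPM in cKO, against 7457 and 7460 CPM in control, so the cKO mean was 58.9% of the control mean. As a share of all counts this was 0.425% and 0.453% in cKO, against 0.737% and 0.753% in control. The groups did not overlap, and an exact two-sided permutation test gave p = 0.333, the smallest it can give with 2 libraries against 2. The erythroid sum was below both controls in cKO replicate 2 and above both in cKO replicate 3, and its part in the enzyme levels was not tested.

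**Figure D1:**
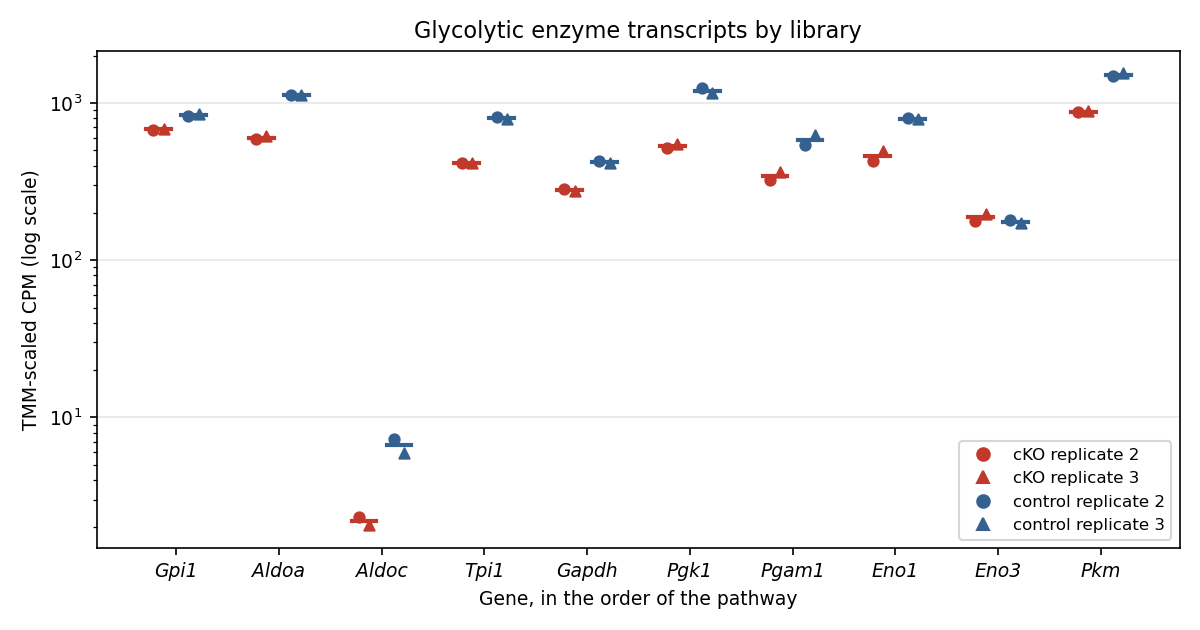
Level of each of the 10 enzymes in each library, in TMM-scaled CPM on a log axis, with cKO in red left of control in blue, circles for replicate 2, triangles for replicate 3 and bars for the group mean. The cKO libraries lie below both controls for 9 genes, while for Eno3 the groups overlap, with the libraries lying between 172 and 197 CPM.

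The start-site windows of 4 genes are shown because these genes span the range of responses: Pgk1 had the lowest level relative to control among the called enzymes, Tpi1 also fell, Gpi1 did not pass, and Eno3 is the muscle isoform. Each window holds 250 bases before and 50 bases after the transcription start, 5′ to 3′ on the gene's strand, from RefSeq on GRCm38.p6, which gave windows for all 10 genes. Capitals mark ACGTG or GCGTG on either strand, so that the reverse complements read CACGT and CACGC.
Pgk1 (chrX:106186850-106187149, plus strand): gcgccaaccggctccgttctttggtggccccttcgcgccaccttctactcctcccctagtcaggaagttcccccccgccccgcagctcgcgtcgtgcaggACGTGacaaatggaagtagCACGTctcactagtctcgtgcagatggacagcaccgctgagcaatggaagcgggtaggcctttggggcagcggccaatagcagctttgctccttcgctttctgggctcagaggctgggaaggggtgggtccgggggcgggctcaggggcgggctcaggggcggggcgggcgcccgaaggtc
Tpi1 (chr6:124814109-124814408, minus strand): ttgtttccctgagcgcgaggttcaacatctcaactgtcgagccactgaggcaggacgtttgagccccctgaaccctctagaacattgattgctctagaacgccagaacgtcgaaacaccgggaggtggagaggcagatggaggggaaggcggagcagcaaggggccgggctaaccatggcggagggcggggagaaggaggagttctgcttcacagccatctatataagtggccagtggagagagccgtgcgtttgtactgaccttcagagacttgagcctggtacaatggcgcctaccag
Gpi1 (chr7:34230287-34230586, minus strand): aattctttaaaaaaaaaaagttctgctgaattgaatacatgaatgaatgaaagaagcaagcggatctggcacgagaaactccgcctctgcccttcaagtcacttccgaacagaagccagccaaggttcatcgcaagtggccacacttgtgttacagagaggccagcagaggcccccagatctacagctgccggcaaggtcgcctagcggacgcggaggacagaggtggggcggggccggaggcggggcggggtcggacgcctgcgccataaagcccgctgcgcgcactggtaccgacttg
Eno3 (chr11:70656926-70657225, plus strand): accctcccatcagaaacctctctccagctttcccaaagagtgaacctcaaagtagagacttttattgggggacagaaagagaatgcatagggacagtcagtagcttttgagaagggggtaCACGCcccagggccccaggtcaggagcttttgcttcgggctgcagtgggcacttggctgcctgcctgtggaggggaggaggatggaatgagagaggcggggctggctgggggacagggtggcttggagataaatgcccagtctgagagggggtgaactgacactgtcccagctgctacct

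Counted from the transcription start, the Pgk1 window holds ACGTG beginning at position -150 and CACGT beginning at -131. The Eno3 window holds CACGC beginning at -130, and the windows of Tpi1 and Gpi1 hold no match. By gene, 8 of the 10 had at least 1 match in a window, beside 67.4% of the 10305 tested genes with a window. Over all start sites listed, 12 of 16 windows held at least 1 match, beside 61.3% of 13215 windows of tested genes and 43.8% of all 32851 windows. Aldoa and Eno1 each have a pair of overlapping windows that hold the same sites, so the window count includes these sites more than once. The windows of Pgam1 and Gapdh and 1 of the windows of Aldoc, which did not pass the test, each had 3 matches, and 3 or more stood in 15.6% of the windows of tested genes. Within a window no matches overlapped each other. A match of 5 letters is frequent and is a description of the window only.

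Gene positions below are those of GENCODE on GRCm38. Of the upper steps, Gpi1 (ENSMUSG00000036427, chromosome 7, 34201330 to 34230336, minus strand) had 678 and 688 CPM in cKO, against 827 and 849 CPM in control. Both cKO libraries were below both controls, and a log2 fold change of -0.30 ± 0.08 (SE) did not pass edgeR's test (adjusted p = 0.444), with a 95% interval of 71.4% to 93.1% of control. DESeq2 called it (adjusted p = 0.049), beside 0.419% of its genes called lower. Aldoa (ENSMUSG00000030695, chromosome 7, 126795234 to 126800751, minus strand), the main aldolase of muscle and many other tissues, had 588 and 615 CPM in cKO, against 1126 and 1117 CPM in control. The groups were far apart relative to the spread within each, and Aldoa fell with a log2 fold change of -0.90 ± 0.09 (adjusted p = 0.00309). Tpi1 (ENSMUSG00000023456, chromosome 6, 124810586 to 124814296, minus strand), the triose phosphate isomerase, had 417 and 418 CPM in cKO, against 810 and 789 CPM in control. The cKO pair was nearly identical, and the log2 fold change was -0.94 ± 0.08 (adjusted p = 0.00204).

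Aldoc (ENSMUSG00000017390, chromosome 11, 78322968 to 78327781, plus strand), the aldolase best known from brain, was scarce in these ventricles, with expected counts of 23 and 41 in cKO, against 62 and 54 in control, or 2.33 and 2.06 CPM in cKO against 7.33 and 5.95 CPM in control. It had the most negative fitted value of the 10 (log2 fold change -1.61 ± 0.29) but did not pass edgeR's test (adjusted p = 0.0774). Its 95% interval ran from 20.7% to 52.1% of control. The log2 ratio of Aldoc to Aldoa, with 0.5 CPM added to each, was -7.70 and -7.91 in cKO, against -7.17 and -7.44 in control. The ratio was lower in cKO by 0.50 on the log2 scale, and by 0.14 with 2 CPM added, so its size depends on the constant added to a gene this scarce. The exact permutation p of 0.333 is again the smallest possible.

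In the lower, ATP-yielding steps, Pgk1 (ENSMUSG00000062070, chromosome X, 106187100 to 106203699, plus strand), phosphoglycerate kinase, an X-linked gene, had 517 and 551 CPM in cKO, against 1245 and 1150 CPM in control. It fell with a log2 fold change of -1.16 ± 0.09 (adjusted p = 0.00128), the lowest p of the 10. The male library, cKO replicate 3, with a single X chromosome, was the higher of the cKO pair. Pkm (ENSMUSG00000032294, chromosome 9, 59656368 to 59679375, plus strand), pyruvate kinase of muscle and most growing tissues, was the most counted of the 10, with 870 and 890 CPM in cKO and 1489 and 1544 CPM in control. It fell with a log2 fold change of -0.79 ± 0.09 (adjusted p = 0.00631). Its M1 and M2 forms differ by an exclusive pair of exons, and a count per gene does not separate them.

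Pgam1 (ENSMUSG00000011752, chromosome 19, 41911923 to 41918660, plus strand), the widely expressed phosphoglycerate mutase, had 325 and 365 CPM in cKO, against 543 and 627 CPM in control. The log2 fold change was -0.76 ± 0.10 (adjusted p = 0.0204), and the call was lost without control replicate 3, the higher control (-0.65, adjusted p = 0.119). Eno1 (ENSMUSG00000063524, chromosome 4, 150236721 to 150248879, plus strand), the ubiquitous enolase, had 428 and 498 CPM in cKO, against 799 and 790 CPM in control. The control pair was tight and the cKO pair more spread, and Eno1 fell, with a log2 fold change of -0.78 ± 0.10 (adjusted p = 0.0153). The call was lost without control replicate 2 (adjusted p = 0.0824) or control replicate 3 (0.0876), with values of -0.77 and -0.79.

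Gapdh (ENSMUSG00000057666, chromosome 6, 125161715 to 125166467, minus strand), the glyceraldehyde phosphate dehydrogenase often used as a reference transcript, had 282 and 277 CPM in cKO, against 430 and 416 CPM in control. It fell with a log2 fold change of -0.60 ± 0.08 (adjusted p = 0.0193). This was the weakest of the 7 calls under other settings: it was lost when any 1 library was left out (adjusted p from 0.051 to 0.116, with log2 fold changes from -0.62 to -0.57) and when copies were summed, as described next.

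Expected counts divide reads that match several genes, so near-identical copies bear on some of these values. A copy was taken as another gene whose transcript matched, in the same orientation, along 300 bases or more with an identity of 95% or more. For Gapdh 62 copies were found, 45 of them with counts, and they held 36.4% and 34.1% of the family's counts in cKO, against 30.7% and 29.2% in control. Most of these counts went to the processed pseudogene Gm5559 (99.9% identity over 1002 bases), at 148 and 129 CPM in cKO, against 173 and 160 CPM in control. Gm5559 had a log2 fold change of -0.27 ± 0.09 and did not pass (adjusted p = 0.623). The Gapdh family as a whole had 443 and 420 CPM in cKO, against 620 and 587 CPM in control, with no call (log2 fold change -0.48 ± 0.09, adjusted p = 0.0729). With copies summed 6 of the 10 enzymes were called lower, beside 0.35% of all genes.

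Eno1 shares sequence with the retrogene Eno1b (99.5% identity over 1736 bases), which had 153 and 177 CPM in cKO, against 324 and 322 CPM in control, and fell like Eno1 (log2 fold change -0.96 ± 0.09, adjusted p = 0.00309). Neither gene had a whole value in any library, so reads were divided among near-identical genes. The fall of Eno1b is therefore not an observation separate from that of Eno1. Summed with its copies, Eno1 had 592 and 694 CPM in cKO, against 1138 and 1132 CPM in control (log2 fold change -0.82 ± 0.10, adjusted p = 0.0134). Pgam1 kept its call when summed with its pseudogenes (-0.75 ± 0.11, adjusted p = 0.0307). For Pgk1 the pseudogene Gm5537, which is 100% identical over 1252 bases, held expected counts of 26.38 and 42.81 in cKO and 0 in both controls, at most 0.513% of the family, and the sum left the Pgk1 value at -1.16. Tpi1, Aldoc, Eno3 and Pkm had no copy and whole values in all 4 libraries, so no divided read is visible in them. Aldoa had no copy either, with a whole value in 3 of the 4 libraries.

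**Figure D2:**
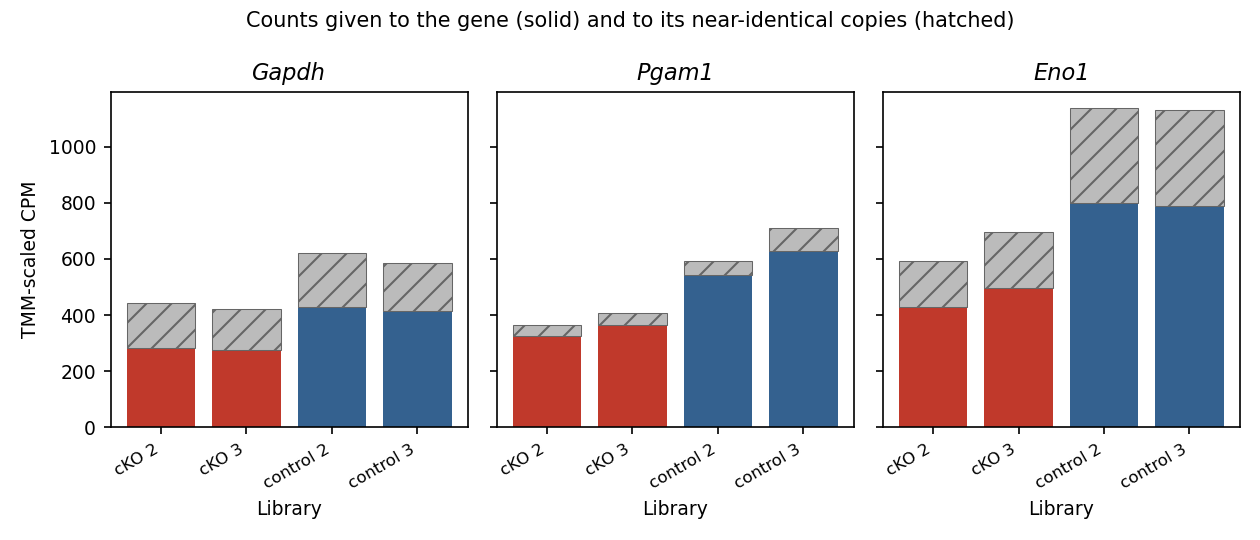
TMM-scaled CPM given to Gapdh, Pgam1 and Eno1 (solid bars, cKO red and control blue) and to their near-identical copies (hatched) in each library. The hatched part is a larger share of the Gapdh family in cKO (36.4% and 34.1%) than in control (30.7% and 29.2%).

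Eno3 (ENSMUSG00000060600, chromosome 11, 70657202 to 70662513, plus strand), the muscle enolase, behaved unlike Eno1. It had 178 and 197 CPM in cKO, against 180 and 172 CPM in control, and the groups overlapped. The log2 fold change was 0.09 ± 0.09 and missed the threshold (adjusted p = 0.869), with a 95% interval of 93% to 122% of control. The log2 ratio of Eno3 to Eno1 was -1.26 and -1.33 in cKO, against -2.14 and -2.20 in control. This ratio was higher in cKO by 0.87 on the log2 scale, many times the spread within either group (SD 0.050 in cKO and 0.037 in control), with the smallest possible exact permutation p of 0.333. Between 0.84 and 0.91 was obtained with any 1 library left out or with Eno1 summed with its copies.

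Phosphoglycerate mutase showed the same arrangement. Pgam2, its muscle gene, had 176 and 153 CPM in cKO, against 153 and 156 CPM in control (log2 fold change 0.09 ± 0.09, adjusted p = 0.881). The log2 ratio of Pgam2 to Pgam1 was -0.88 and -1.25 in cKO, against -1.82 and -2.01 in control, higher in cKO by 0.85 on the log2 scale (exact permutation p = 0.333). Of the other isoforms of these steps, the neuronal enolase Eno2 was low and variable, with 9.21 and 11.8 CPM in cKO, against 10.5 and 4.52 CPM in control (adjusted p = 0.801). Gapdhs, Pgk2, Eno4 and Pklr, forms known from sperm or red cells among others, stayed under 1 CPM in every library and were not tested.

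**Figure D3:**
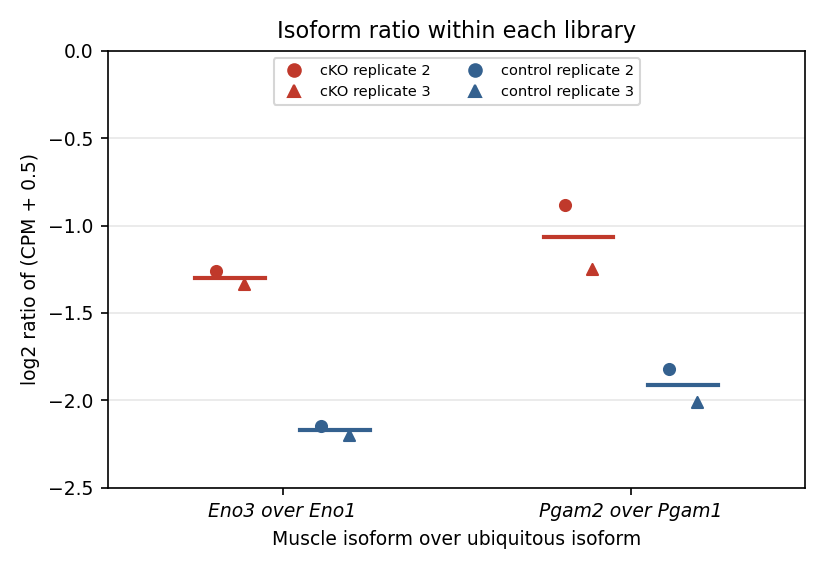
Log2 ratio of the muscle to the ubiquitous isoform within each library, for enolase (Eno3 over Eno1) and phosphoglycerate mutase (Pgam2 over Pgam1), with 0.5 CPM added to each level and bars at the group mean. Both cKO libraries, in red, lie above both controls, in blue, by a mean of 0.87 for enolase and 0.85 for phosphoglycerate mutase.

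With all listed isoforms and copies added together, the reads for the 8 steps can be ordered by the level left in cKO. There, phosphoglycerate kinase stood at 44.8% of the control mean, triose phosphate isomerase at 52.2%, aldolase at 53.5%, pyruvate kinase at 58%, enolase at 63.8%, phosphoglycerate mutase at 68.3%, glyceraldehyde 3-phosphate dehydrogenase at 71.5% and glucose 6-phosphate isomerase at 81.5%. Enolase reads were 780 and 904 CPM in cKO, against 1329 and 1309 CPM in control. Each step had both cKO libraries below both controls. These sums are descriptions of reads, and differences between steps were not tested.

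Levels can be compared between genes only per length. Per kilobase of merged exons, Pgk1 was highest in both groups, at 238 ± 10.5 CPM per kilobase in cKO and 533 ± 29.9 in control (SD, n = 2 each), followed by Aldoa at 207 ± 6.46 in cKO and 385 ± 2.29 in control. Pkm and Pgam1 came next and overlapped between libraries in both groups. Aldoc was lowest, at 0.672 ± 0.058 in cKO and 2.04 ± 0.30 in control. Eno3 ranked 6 in cKO and 9 in control, and Eno1 ranked 8 in cKO and 6 in control. The libraries of Eno3 overlapped with those of its neighbour Gpi1 in cKO and with those of Gapdh in control, so these neighbours did not differ beyond their spread. Pgam1 and Tpi1 also overlapped in control. By merged exons Eno3 made up 56.3% and 55.1% of the Eno1 and Eno3 level in cKO, against 41.1% and 40.3% in control. This share leaves out the reads given to the copies of Eno1. The ranks also leave out reads given to copies, which affects Eno1, Gapdh and Pgam1. These ranks and shares depend on the length used: with the longest coding transcript Aldoa ranked first over all libraries, and the Eno3 level in control was 28.8% of that of Eno1, against 68.6% by merged exons, since merged exons of Eno1 span 5379 bases and its longest coding transcript 2027. By that transcript Eno3 lay below Eno1 in cKO too, at 114 and 126 against 211 and 246 CPM per kilobase. The order of Eno3 and Eno1 in cKO is therefore not settled by these counts.

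Around these enzymes, 7 of the 12 tested genes of glucose entry, phosphofructokinase and lactate fell by edgeR's test, beside 0.365% of all genes tested, and 5 did not pass. DESeq2 called 6 lower, beside 0.419% of its genes, and limma-voom called 7, beside 0.387%. None was called higher by edgeR (0.146% of genes higher), DESeq2 (0.206%) or limma-voom (0.146%). At an unadjusted p under 0.05, 7 were lower, beside 3.58% of all genes tested, and 0 were higher, beside 3.39%. The median log2 fold change of the 12 genes was -0.86, beside -0.0003 over all genes tested. The falls by edgeR's test were those of the glucose transporters Slc2a1 (-1.11 ± 0.18, adjusted p = 0.0468) and Slc2a3 (-1.44 ± 0.18, adjusted p = 0.0168), hexokinase Hk2 (-0.93 ± 0.12, adjusted p = 0.0193), the phosphofructokinases Pfkl (-1.63 ± 0.08, adjusted p = 6.39e-05) and Pfkp (-0.79 ± 0.11, adjusted p = 0.02), lactate dehydrogenase Ldha (-1.58 ± 0.09, adjusted p = 0.000161) and the lactate exporter Slc16a3 (-1.98 ± 0.14, adjusted p = 0.000635). Calls were lost without control replicate 2 or 3 for Slc2a1 (adjusted p = 0.169 and 0.157), Slc2a3 (0.0925 and 0.122) and Hk2 (0.071 and 0.149), and without control replicate 2 for Pfkp (0.0847). DESeq2 did not call Slc2a1 (adjusted p = 0.0654), which also missed the threshold with total-count scaling (0.0564), without the filter (0.0731) and with the stricter filter (0.0654). Pfkm, the muscle phosphofructokinase, Ldhb, the heart lactate dehydrogenase, and Slc2a4, the insulin-regulated glucose transporter, had log2 fold changes of 0.05 ± 0.08, 0.18 ± 0.10 and 0.15 ± 0.11 and did not pass. Their 95% intervals ran from 91.1% to 117% of control for Pfkm, from 97% to 132% for Ldhb and from 93.4% to 131% for Slc2a4. Hk1 (-0.09 ± 0.09) and Slc16a1 (-0.14 ± 0.08) did not pass either.

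**Figure D4:**
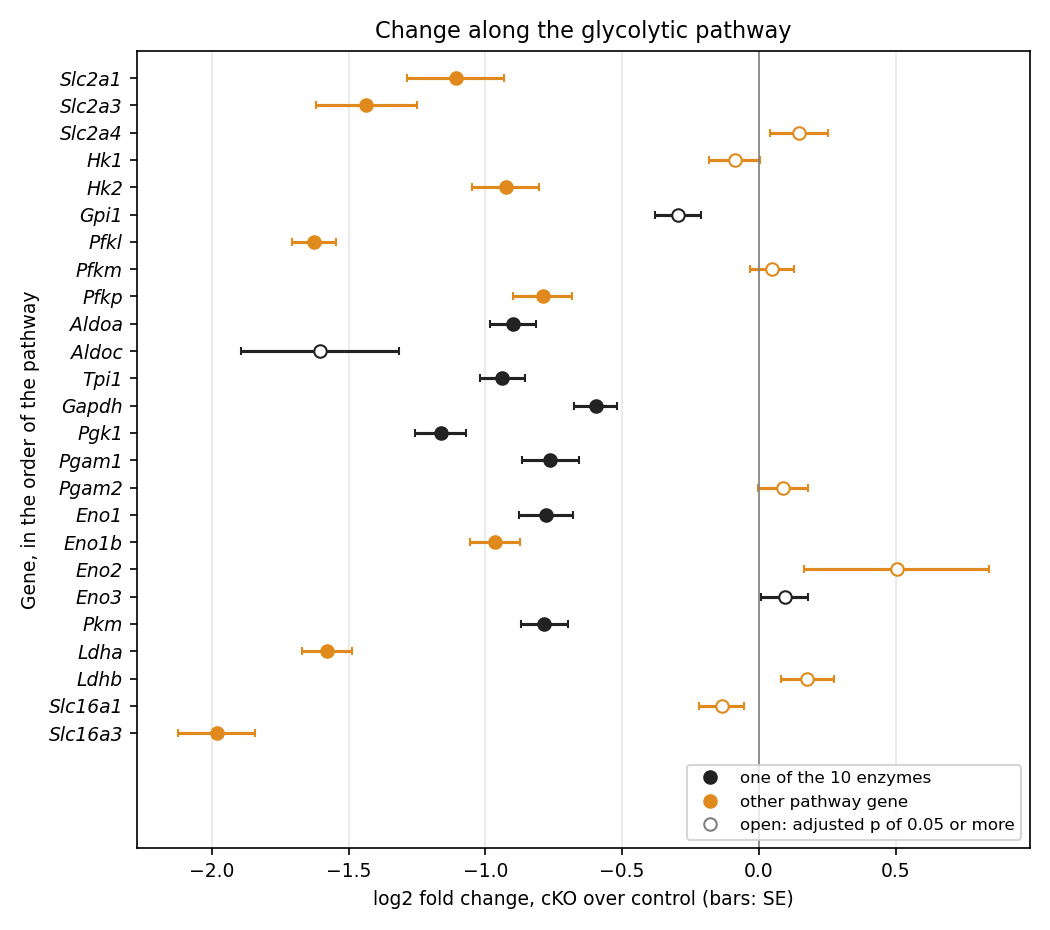
Log2 fold change, cKO over control, with its standard error, for the 10 enzymes (black) and other tested pathway genes (orange), in pathway order, with open symbols where the adjusted p was 0.05 or more. The called falls run from -0.60 for Gapdh to -1.98 for Slc16a3, while Eno3, Pgam2, Pfkm, Ldhb and Slc2a4 lie between 0.05 and 0.18. The scarce neuronal enolase Eno2 lies highest, at 0.50 with a standard error of 0.34, and did not pass.

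Enzymes that branch off at the same intermediates were tested too. Of the glycerol phosphate dehydrogenases Gpd1, Gpd1l and Gpd2 and the bisphosphoglycerate mutase Bpgm, known for its role in red cells, 0 of 4 were called by edgeR, DESeq2 or limma-voom, and 0 had an unadjusted p under 0.05. Over all genes tested, edgeR called 0.365% lower and 0.146% higher. At an unadjusted p under 0.05, 3.58% were lower and 3.39% higher. With shares this small, 0 of 4 does not set these genes apart from others. Bpgm had 28.5 and 52.5 CPM in cKO, against 43.97 and 49.95 CPM in control, low in the cKO library in which erythroid markers were low. Whether the erythroid share bears on Bpgm was not tested. Of the factors Ptbp1, Hnrnpa1, Hnrnpa2b1 and Srsf3, which are known to set the splicing of Pkm, 0 of 4 were called by any of the 3 tools and 0 had an unadjusted p under 0.05, with log2 fold changes from -0.13 to 0.01. Beside the same shares over all genes tested, this count does not set the factors apart either.

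Among 10526 other protein-coding genes with a mean of at least 5 CPM, those whose centred log2 profile over the 4 libraries lay nearest to the median profile of the 10 enzymes included Egln1, Cavin3, P4ha1, Ddc and Hmga1, at distances from 0.073 to 0.13 on the log2 scale. Egln1, the prolyl hydroxylase that marks HIF alpha subunits for destruction, had 58.8 and 63.5 CPM in cKO, against 112 and 109 CPM in control. P4ha1, a collagen prolyl hydroxylase, had 40.3 and 47.8 CPM in cKO, against 74.1 and 75.1 CPM in control. The caveolar protein gene Cavin3 had 11.4 and 11.9 CPM in cKO, against 19.27 and 19.85 CPM in control. These genes were picked for their values in the same libraries, so no test is given, and 4 libraries leave room for chance likeness. Reads of Hmga1 may be shared with the near-identical Hmga1b.

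Other cell markers moved in part with the groups. Of 8 endothelial and endocardial markers 0 passed edgeR's, DESeq2's or limma-voom's test, with 5 lower at an unadjusted p under 0.05, as were 3.58% of all genes tested. Their sum was 1192 and 1106 CPM of the total in cKO, against 1291 and 1372 CPM in control. Smooth muscle and pericyte markers (5 genes) summed to 819 and 960 CPM in cKO, against 1245 and 1281 CPM in control. Of the 4 of these that were tested, 0 passed edgeR's test and 3 were lower at an unadjusted p under 0.05. Acta2, smooth muscle actin, which the embryonic heart muscle is also known to express, had 492 and 603 CPM of the total in cKO, against 823 and 869 CPM in control. Acta2 missed edgeR's threshold (log2 fold change -0.63 ± 0.11, adjusted p = 0.0598) and was called lower by DESeq2 (adjusted p = 3.24e-07) and limma-voom (0.0394). Epicardial markers (5 genes) summed to 308 and 230 CPM in cKO, against 280 and 323 CPM in control. Of these 5, 1 was called lower by edgeR, the keratin gene Krt19, beside 0.365% of all genes tested. At an unadjusted p under 0.05, 2 of the 5 were lower and 0 were higher. Cushion mesenchyme and fibroblast markers (6 genes) summed to 977 and 1265 CPM in cKO, against 922 and 1418 CPM in control. Liver and neural markers stayed under 6 CPM in sum, and immune markers between 25.5 and 57.3 CPM. The part of these cells in the enzyme levels was not tested.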

How the data were processed

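Polyadenylated RNA of 4 ventricles was sequenced as single reads of 75 bases, from 500 ng of total RNA, per the labels' protocols. A single table was deposited by the authors and holds expected counts (estimated, unscaled) for each gene. The submitters' processing notes name RSEM 1.2.3, CASAVA 1.8.2, cutadapt 1.3 and GRCm38, without settings or annotation. The kit is not described as stranded, so antisense reads cannot be separated.

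Symbols and lengths came from GENCODE release 21 for mouse, which named 36345 identifiers; copies among the others were not searched. Expected counts were rounded, filtered by group (minimum count 10, minimum total 15), scaled by TMM and tested with edgeR 4.0.16 in R 4.3.3. The design left 2 residual degrees of freedom. The test moderates the variance of each gene with those of other genes, so p-values and intervals rest in part on variance borrowed across genes. SE is the log2 fold change over the square root of F. The test was also run on simulated counts drawn with edgeR's own variances. These held no shared reads and no sex difference, so that run does not bear on such limits here. Copies were found with BLAST 2.17.0. Alternatives used DESeq2 1.42.0, limma 3.58.1 (voom), other scalings and filters, the replicate block, thinning of cKO replicate 3 and single libraries left out. Replicates are separate embryos and differed beyond sampling noise (chi-square divided by its degrees of freedom 13.0 in cKO, 5.77 in control).

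The enzymes, gene lists and tests were chosen with earlier results of these data known. Named were the 10 enzymes, listed isoforms, called genes of the pathway list, Hif1a, Xist and Ddx3y, and the 6 nearest profiles, of which some genes are not reported here. Intervals cover the spread between these libraries, with variances moderated across genes. Nkx2-5, Acta2 and Krt19 were named after their values were seen. Other genes of the pathway list and marker sums are given as values.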

Additional observations from a re-analysis of the deposited data

How the results depend on the processing

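The 7 called enzymes were also called under DESeq2's size factors, upper-quartile and total-count scaling, and limma-voom. They were also called with no filter, with a mean of at least 5 CPM and with thinning of cKO replicate 3. In these fits between 0.193% (no filter) and 0.387% (limma-voom) of genes tested were called lower. DESeq2's test called the 7 and Gpi1, beside 0.419% of its genes called lower. With copies summed 6 were called, Gapdh being lost, beside 0.35% of all genes called lower. Leaving out 1 library gave 4 to 6 called lower and 0 higher, a median log2 fold change from -0.87 to -0.72, and 39 to 141 calls over all genes, beside 70 in the full data; the lowest values for both counts came without control replicate 3 and the highest for all genes without cKO replicate 2. Aldoa, Tpi1, Pgk1 and Pkm kept their calls in all 4 leave-outs (highest adjusted p 0.0248, 0.017, 0.0131 and 0.048). In the leave-outs the Eno3 to Eno1 difference ran from 0.84 to 0.91, the Aldoc to Aldoa difference from -0.64 to -0.37, and the summed level from 57.5% to 60.3% of control. With 1 library in a group, that library is assumed to vary like the other group. The Aldoc to Aldoa difference was -0.14 with 2 CPM added, and Eno3 stood at 28.8% of Eno1 per length by the longest coding transcript; both follow from the constant or length used. No sign changed among the 10 enzymes. Same-numbered libraries deviated together only weakly (correlation 0.106 across genes), and no label says that a number marks a shared source. The replicate block gave 75 calls over all genes, beside 70 without it, with 0.387% of genes tested called lower. It called the same 7 enzymes and gave a median of -0.78. The isoform differences are then 0.88 and 0.86 for enolase in replicates 2 and 3, with a mean of 0.87. For aldolase they are -0.53 and -0.47, with a mean of -0.50. Depth limits Aldoc (23 to 62 counts), and with the stricter filter it was not tested.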
